A study of Mus musculus with 26 samples.

Results

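Supporting lineage cells of the fetal mouse ovary, the precursors of the granulosa cells that later surround each oocyte, were followed from embryonic day E11.5 to E13.5. They were chosen among the cells of the Negative sort gate, in which neither germ cell reporter was read. A cell was kept when Upk3b, a gene of the surface epithelium, was below 100 CPM (UMI counts of a gene scaled to a fixed total over the genes read), Tyrobp, a gene of macrophages, below 200 CPM and Asz1, a germ cell gene, below 100 CPM. In addition, the summed CPM of Kitl, Rspo1 and Wnt4 had to reach that of the stromal genes Tcf21, Pdgfra and Dcn. The rule kept 82 of the 1881 cells of the study, out of 125 Negative-gate cells and 561 cells in all at these 3 stages. Of the other Negative-gate cells, 24 had the higher stromal sum and are called stromal, and 19 failed a limit, 17 for Upk3b, 2 for Asz1 and 0 for Tyrobp. The rule used measured levels, so the levels of these 9 genes, and differences in level between supporting and stromal cells, are described without a test.

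All groups were female gonads of mice with the BVSC transgenes, in which Blimp1-mVenus and Stella-ECFP mark germ cells. Supporting and stromal cells carry the same transgenes, and the groups compared differ by stage and library. Gonads of several embryos were combined for each stage, with sex read by a PCR for Sry at E11.5 and from gonad shape later. Single cells were sorted, picked by hand and sequenced from their 3' ends with molecular identifiers (STRT-seq). Libraries are named by number. The E11.5 cells came from library 1 (12 cells), library 2 (6) and library 7 (10), the E12.5 cells from library 8 (19) and library 9 (14), and the E13.5 cells from library 3 (20) and library 11 (1). No label ties a library to particular embryos.

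In the XX gonad, cells of the coelomic epithelium and its early descendants express Wt1, Nr5a1 and Lhx9, transcription factors without which the gonad does not form. WNT4 and R-spondin 1 signal through beta-catenin to hold the supporting lineage on the ovarian path, and KIT ligand from these cells acts on the KIT receptor of germ cells. In the XY gonad the same lineage turns on Sry and Sox9 and becomes Sertoli cells. PAX8 is a transcription factor of the mesonephric tubules and the rete, the duct system that borders the gonad.

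For tests, UMI counts were summed over the supporting cells of each library with at least 5 of them, giving 6 pools at E11.5 to E13.5 (81 cells, 242434 to 1876997 UMIs in the genes read). The cell of library 11 entered no pool. The same thresholds chose 239 cells at E14.5 to E18.5, in 11 pools of 5 to 36 cells, which shared the fit. Stromal cells gave 3 pools of 6 to 9 cells, from libraries 7, 9 and 3. The median supporting cell had 123598.5 UMIs (lowest 11593, highest 486087) and 6396 genes. The stage medians were 91740 UMIs at E11.5, 123063 at E12.5 and 155689 at E13.5, so depth moved with stage. The 82 cells used 41 cell barcode numbers, 19 of them in more than 1 library, and no pair of cells had identical counts.

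**Figure D1:**
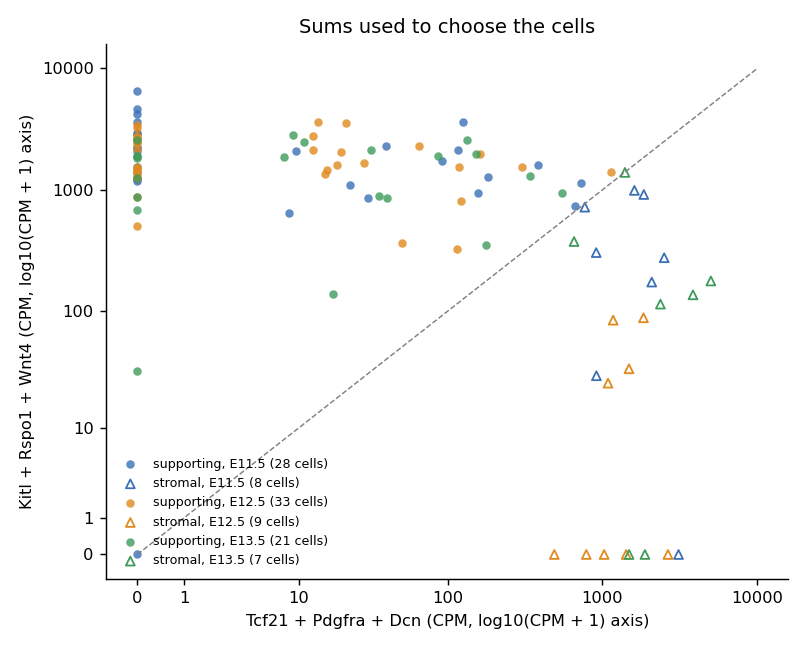
Sums of the 3 supporting genes (vertical) and the 3 stromal genes (horizontal) used to choose the cells, in CPM on log10(CPM + 1) axes, with supporting cells as filled circles, stromal cells as open triangles and the stages E11.5, E12.5 and E13.5 in blue, orange and green. The dashed line marks equal sums, and 38 of 81 supporting cells with a UMI of these genes lie at 0 on the horizontal axis.

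Nearly all cells lay far from the limit between the supporting and stromal sums. Of the 81 cells with a UMI of any of the 6 genes, 38 had none of the stromal genes and 77 had a supporting sum at least 2 times the stromal one. The 5 cells nearest to the limit on the inside had 52.4%, 55.2%, 61.1%, 63.3% and 66.7% of their 6-gene sum in the supporting genes, and the 3 nearest on the outside had 49.9%, 48.3% and 38.1%. The highest Upk3b level of a kept cell was 73.4 CPM and the lowest of a cell that failed was 131 CPM. The corresponding Asz1 levels were 57.0 and 101 CPM. The highest Tyrobp level of a kept cell was 51.0 CPM.

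Kitl, Wnt4 and Rspo1 were used by the rule, so their levels describe the choice and do not check the label. Kitl, the most abundant of them, had a UMI in 80 of 82 cells and stood at 1427, 1745 and 1357 CPM in the E11.5 pools of libraries 1, 2 and 7, 1708 and 978 CPM in the E12.5 pools of libraries 8 and 9, and 1088 CPM in the E13.5 pool of library 3. Wnt4 was found in 58 cells and Rspo1, a lower-level secreted activator of WNT signalling, in 40. Their pools ran from 128 CPM (library 7) to 912 CPM (library 2) and from 42.7 CPM (library 1) to 223 CPM (library 2). The label was compared with genes outside the rule, which did not all separate supporting from stromal cells. Kctd14, a gene listed as a pregranulosa marker, and Ifitm1, an interferon-induced membrane protein, were found in all 82 cells. A UMI of Kctd14 alone does not mark a supporting cell, since the BVSC-gate cells of library 3 had a median of 61.1 CPM. Ifitm1 is given here without a level in other cells, so it does not check the label. Kctd14 pools ranged from 2106 CPM (library 3) to 4426 CPM (library 2) and Ifitm1 pools from 2360 to 3956 CPM in the same libraries. Wt1 had a UMI in 79 cells, Wnt6 in 78, Nr5a1 in 73 and Lhx9 in 68. In libraries 7, 9 and 3 Wt1 stood at 658, 470 and 773 CPM in stromal pools and 1260, 1051 and 739 CPM in supporting pools. Wnt6, Nr5a1 and Lhx9 stood at 18.8 to 496, 18.8 to 214 and 100 to 186 CPM in the stromal pools. Fzd1, also of the pregranulosa list, went the other way, with 122, 37.0 and 12.6 CPM in these stromal pools. Its supporting pools of the same libraries had 4.23, 10.5 and 4.26 CPM. The Sertoli gene Amh was at 0 to 2.64 CPM in 5 of the 6 pools and at 52.9 CPM in library 1, where all 47 UMIs came from 1 cell. The Sertoli list as a whole was higher and summed to 348 to 1390 CPM in the 6 pools. In the stromal pools of libraries 7, 9 and 3 that list summed to 25.1, 59.6 and 159 CPM. Foxl2, Fst, Runx1, Gata4 and Sox9 were not analysed here.

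Markers of other cell types were not equal between libraries, and not all were low. The stromal list summed to 314 to 735 CPM in the 6 supporting pools against 4796, 2196 and 5386 CPM in the stromal pools of libraries 7, 9 and 3. The immune list was at 0 to 19.1 CPM in 5 pools and 289 CPM in library 2. The erythroid list, led by embryonic globins, was at 19.8 to 403 CPM in 5 pools and 2128 CPM in library 2. Endothelial genes summed to 59.2 to 158 CPM, surface epithelium genes to 0 to 11.7 CPM and the mesonephric or rete list to 76.2 to 347 CPM. In the stromal pools of libraries 7, 9 and 3 the mesonephric or rete list summed to 6.27, 8.22 and 101 CPM. Germ cell genes summed to 169 to 633 CPM, against 3451 to 3726 CPM in the BVSC-gate cells of the 5 libraries that held such cells. Library 2 therefore stood apart in blood and macrophage genes, and it also held only Negative-gate and BV-gate cells.

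A few of the 82 cells went against the label. In 1 E13.5 cell of library 3 (313576 UMIs) the germ cell list summed to 3627 CPM, beside a median of 3818 CPM in the 63 BVSC-gate cells of that library and of 317 CPM in the other supporting cells. Its Kctd14 level was 68.9 CPM against a median of 3002 CPM in the other supporting cells, its Wt1 level 18.8 against 996 CPM and its Kitl level 18.8 against 1400 CPM. Rhox9, an X-linked homeobox gene, was at 1234 CPM in that cell, close to the BVSC-gate median of 1311 CPM. The cell of library 11 had the next highest germ cell sum, 3158 CPM. Kctd14 was also low, at 87.5 CPM in 1 cell of library 9 and 103 CPM in 1 cell of library 7, both with stromal genes close to the limit. A cell of library 2 (11991 UMIs) was kept on a tie, with no UMI of the 6 genes. It had 5016 CPM of Kctd14 and 1075 CPM of Wnt6, but also 7703 CPM of the globin gene Hbb-y, and none of Wt1, Lhx9 or Xist.

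Outside the rule, Cst8, Spp1 and Ereg were among the genes with the largest ratios of supporting to stromal level. Cst8, a cystatin, stood at 515, 458, 553, 542, 643 and 655 CPM in libraries 1, 2, 7, 8, 9 and 3 and at 0, 2.05 and 10.1 CPM in the stromal pools of libraries 7, 9 and 3. Its supporting pools differed by less than 1.5 times. Spp1, which encodes osteopontin, averaged 250 CPM and had no UMI in any stromal pool, so its mean level was at least 100-fold higher (bound from 3 counts over the stromal pools). Ereg, an EGF receptor ligand, stood at 187, 318 and 461 CPM at E11.5, 136 and 116 CPM at E12.5 and 15.45 CPM at E13.5, with 1 UMI in the stromal pools. The other genes among the 10 with the largest ratio were Taf7l, Drp2, Cst9, Gm37350, Ptgds, Sprr2a1 and Sprr2a2. Sprr2a1 and Sprr2a2 had identical values and may share reads. In all, 240 of 3409 genes at 50 CPM or more in supporting pools were at least 4-fold higher than in stromal pools, which is a description because the rule chose these classes. With CPM scaled by all deposited UMIs of a cell the count was 124 of 2267.

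For the step from E11.5 to E12.5, called genes were named by their log2 change, a ranking that favours genes at or near 0 in the E11.5 pools. In the quasi-likelihood test of edgeR over 8226 genes, with Benjamini-Hochberg adjustment at 0.05, 37 genes rose (0.45% of the genes tested) and 1 fell (0.0122%). In the BVSC-gate cells of libraries 8 and 9, 3 of the 37 had a higher mean level than in the supporting pools, with no share over all genes beside this count. With each cell thinned to 20000 UMIs, 31 genes rose and 5 fell. The balance depended on the tool and the pools, with 86 up and 33 down by DESeq2 and 79 and 25 with pools of at least 8 cells. Limma on means of cells gave 1 up and 1 down. The fit shared its estimate of spread with the later stages. With E11.5 to E13.5 alone in the fit only 1 gene was called, Hsd3b1, and without library 8 or without library 9 the count was 10. The genes below are therefore described by their values in each library first.

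Promoter sequences are shown for the 5 leading genes that had no UMI in any of the 28 E11.5 cells, since these transcripts were not detected before the step. Each line gives the 250 bases before the RefSeq start (GRCm38.p6), 5′ to 3′ on the gene's strand. Capitals mark matches to 5 motifs searched on both strands, namely the orphan receptor motif AAGGTCA (NR5A1 type), the zinc finger motif AGATAA (of the GATA factors), the motif of the beta-catenin partners CTTTGAA (TCF/LEF type), the promoter element CCAAT and the Sp1-type box GGGCGG (GC box). The windows are chr3:98859795-98860044 for Hsd3b1 (minus strand), chr7:144738574-144738823 for Ano1 (minus), chr2:60553309-60553558 for Pla2r1 (minus), chr6:124492863-124493112 for C1rl (plus) and chr4:141088095-141088344 for Spata21 (plus).
Hsd3b1: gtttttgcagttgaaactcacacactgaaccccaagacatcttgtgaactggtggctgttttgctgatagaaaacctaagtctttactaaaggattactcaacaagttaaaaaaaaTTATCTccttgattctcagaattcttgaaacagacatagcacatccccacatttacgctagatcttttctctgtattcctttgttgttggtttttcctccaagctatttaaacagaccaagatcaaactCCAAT
Ano1: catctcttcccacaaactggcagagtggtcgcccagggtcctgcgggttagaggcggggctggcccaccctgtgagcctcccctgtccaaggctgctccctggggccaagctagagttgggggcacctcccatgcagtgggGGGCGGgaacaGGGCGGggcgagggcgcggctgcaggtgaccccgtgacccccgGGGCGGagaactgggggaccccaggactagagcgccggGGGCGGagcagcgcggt
Pla2r1: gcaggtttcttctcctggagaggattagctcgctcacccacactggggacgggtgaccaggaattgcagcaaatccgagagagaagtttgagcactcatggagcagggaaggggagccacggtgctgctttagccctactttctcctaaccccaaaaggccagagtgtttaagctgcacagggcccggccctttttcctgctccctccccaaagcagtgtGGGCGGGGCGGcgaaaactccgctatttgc
C1rl: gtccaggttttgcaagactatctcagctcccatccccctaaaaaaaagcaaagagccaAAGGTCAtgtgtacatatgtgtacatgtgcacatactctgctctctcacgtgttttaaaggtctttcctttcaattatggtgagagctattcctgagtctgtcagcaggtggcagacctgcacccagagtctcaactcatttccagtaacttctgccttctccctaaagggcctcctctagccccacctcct
Spata21: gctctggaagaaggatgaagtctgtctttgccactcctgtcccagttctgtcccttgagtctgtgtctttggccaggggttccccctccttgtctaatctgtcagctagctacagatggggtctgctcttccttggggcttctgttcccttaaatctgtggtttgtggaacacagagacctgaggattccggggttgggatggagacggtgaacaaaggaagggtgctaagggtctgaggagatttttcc

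No motif of this search was found in all 5 promoters. Hsd3b1 had a CCAAT match beginning 5 bases before the start and a GATA-type match on the other strand, Ano1 had 4 GC boxes, Pla2r1 had 2 overlapping GC boxes, C1rl had an NR5A1-type match beginning 192 bases before the start, and Spata21 had none. The RefSeq start of Ano1 lies within the longer gene span of GENCODE, so other start sites exist. Of the 32 risen genes with a window, 1 held AAGGTCA (4.05% of all 27025 windows, 2.94% of the 6466 windows of tested genes), 4 held AGATAA (10.3% and 6.43%), 2 held CTTTGAA (4.64% and 3.28%), 7 held CCAAT (34.5% and 36.1%) and 21 held GGGCGG (32.9% and 56.3%). A match is a description of the letters and not a binding site.

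Hsd3b1 encodes a 3-beta-hydroxysteroid dehydrogenase, an enzyme of steroid hormone synthesis, and lies at chr3:98852194-98859794 in GRCm38. It had no UMI at E11.5 and stood at 199 and 385 CPM in libraries 8 and 9, 52.2 CPM in library 3 at E13.5 and 18.9 to 808 CPM (median 427) in the later pools. All E12.5 pools lay above all E11.5 pools, a condition for being named. The UMIs came from 4 of 19 cells in library 8 and 7 of 14 in library 9, so most cells had none. Its level rose at least 179-fold (3 counts over the E11.5 pools as the bound), with a fitted log2 change of 12.05 ± 1.31 (SE) and an adjusted p of 1.15e-06 by edgeR. The call held in 19 of 20 alternatives. Near-identical members of the Hsd3b family lie beside it on chromosome 3, and reads that fit several of them may have been split.

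The other 4 genes with no UMI at E11.5 were lower. Ano1, a calcium-activated chloride channel (chr7:144588549-144751974), stood at 61.3 and 18.4 CPM at E12.5, 127 CPM at E13.5 and 124 to 401 CPM later. It was found in 7 of 19, 4 of 14 and 13 of 20 cells of libraries 8, 9 and 3, so the share of cells with a UMI was highest at E13.5. Its level rose at least 24.5-fold (log2 change 9.21 ± 1.30, adjusted p = 0.000185, edgeR). Pla2r1, a receptor of secreted phospholipase A2 (chr2:60417543-60553308), stood at 21.8 and 80.4 CPM at E12.5, 57.5 CPM at E13.5 and 21.6 to 326 CPM later. It rose at least 31.3-fold (log2 change 9.53 ± 1.65, adjusted p = 0.00273, edgeR), but 52 of its 61 UMIs in library 9 came from 1 cell. C1rl, a C1r-like serine protease (chr6:124493113-124510643), stood at 33.1 and 19.8 CPM at E12.5, 35.7 CPM at E13.5 and 21.8 to 97.8 CPM later. Spata21 (chr4:141088333-141112760) stood at 32.3 and 40.8 CPM at E12.5, 1.07 CPM at E13.5 and 19.8 to 147 CPM later. The adjusted p was 0.0274 for C1rl and 0.0167 for Spata21 (edgeR), and each call held in 12 of 20 alternatives. In libraries 8 and 9 C1rl was found in 3 of 19 and 2 of 14 cells and Spata21 in 4 of 19 and 3 of 14.

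A second set had 1 to 5 UMIs in all E11.5 pools together. Tceal6, of a family related to transcription elongation factor A, stood at 2.25, 0 and 0 CPM at E11.5, 10.5 and 192 CPM at E12.5 and 71.4 CPM at E13.5. The ratio of E12.5 to E11.5 means was 93.3 (exact Poisson interval 25.8 to 771, counting error only), with an adjusted p of 0.00745 (edgeR). Tceal6 was found in only 2 of 19 cells of library 8 and 3 of 14 of library 9. In these libraries 12 of 13 and 82 of 146 UMIs came from 1 cell each. Wfdc6a, a WAP-domain gene of the protease inhibitor type, stood at 3.37, 0 and 0 CPM at E11.5, 32.3 and 31.6 CPM at E12.5 and 50.1 CPM at E13.5. It rose by 4.32 ± 0.80 on the log2 scale (adjusted p = 0.00548, edgeR) and stood at 99.5 to 279 CPM later. At E12.5 it was found in 3 of 19 and 4 of 14 cells, and 19 of its 24 UMIs in library 9 came from 1 cell. Wfdc6b, its near-identical neighbour, had almost the same values and may share its reads. Spaca9 and B3galnt1, a globoside-synthesising glycosyltransferase, also rose, with adjusted p-values of 0.0235 and 0.0281 (edgeR). These calls held in 13 and 12 of 20 alternatives, and both were lost without library 8 and without library 9. Spaca9 was also lost without library 7 and B3galnt1 also without library 1 or 2. Both were lost as well with libraries merged by their replicate label (R1 or R2). At E12.5 Spaca9 was found in 3 of 19 and 3 of 14 cells and B3galnt1 in 6 of 19 and 4 of 14.

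Cntn4, a contactin of the cell adhesion type, stood at 42.7, 33.0 and 5.64 CPM at E11.5, 166 and 171 CPM at E12.5 and 208 CPM at E13.5, a log2 change of 2.69 ± 0.53 (adjusted p = 0.00901, edgeR). It was found in 3 of 12, 2 of 6 and 2 of 10 cells at E11.5 and in 13 of 19 and 9 of 14 at E12.5. The gene that fell was Ppp3ca, a catalytic subunit of calcineurin, at 155, 454 and 62.1 CPM against 17.8 and 39.5 CPM (log2 change -2.92 ± 0.70, adjusted p = 0.0454, edgeR), and this call held in 10 of 20 alternatives.

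**Figure D2:**
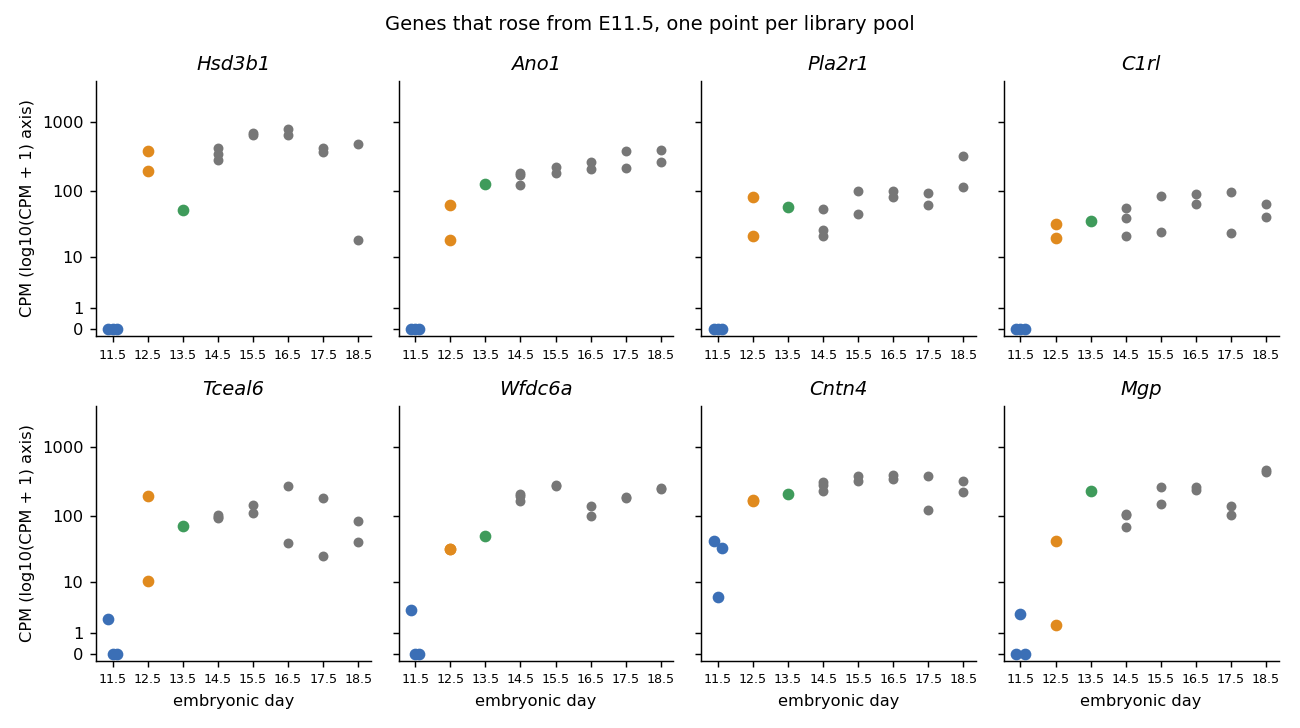
Levels of 8 genes in CPM on a log10(CPM + 1) axis against embryonic day, with 1 point per library pool (E11.5 blue, E12.5 orange, E13.5 green, later stages grey). Hsd3b1, Ano1, Pla2r1 and C1rl lie at 0 in all 3 E11.5 pools and above it at E12.5, Cntn4 runs from 5.64 to 42.7 CPM at E11.5 and from 166 to 171 CPM at E12.5, and Mgp stands at 227 CPM at E13.5.

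By E13.5, known from the 1 pool of library 3, Mgp and Cd44 were higher than at E11.5 and Cited2 was lower. Over 8226 genes, 22 rose (0.267%) and 3 fell (0.0365%) between E11.5 and E13.5 by edgeR. The balance turned in other tools, with 30 up and 48 down by DESeq2 and 6 up and 8 down by limma on means of cells. The lone E13.5 pool was assumed to vary like the other stages, and with E11.5 to E13.5 alone in the fit no gene was called. Mgp, the matrix Gla protein that restrains calcification, stood at 0, 0 and 2.82 CPM at E11.5, 1.61 and 42.2 CPM at E12.5, 227 CPM at E13.5 and 68.1 to 462 CPM later. It had a UMI in 1 of 10 cells of library 7, in none of the other E11.5 cells and in 18 of 20 cells of library 3, and the log2 change was 7.50 ± 1.03 (adjusted p = 7.63e-05, edgeR). Cd44, the hyaluronan receptor, stood at 0, 8.25 and 0 CPM at E11.5, 25.8 and 10.5 CPM at E12.5 and 74.1 CPM at E13.5, with a log2 change of 5.71 ± 1.08 (adjusted p = 0.00775, edgeR). Ano1 rose at least 77.8-fold by E13.5, Pla2r1 at least 35.3-fold, Hsd3b1 at least 32.0-fold and C1rl at least 21.9-fold, the last a call that held in 8 of 19 alternatives. Ltbp4, which binds latent TGF-beta, and the sulfotransferase Sult1a1 also passed, but 81 of the 89 Sult1a1 UMIs and 61 of the 113 Ltbp4 UMIs of library 3 came from 1 cell each.

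The 3 genes that fell by E13.5 were abundant at E11.5. Cited2, a transcriptional coregulator that takes part in early gonad development, stood at 540, 1609 and 571 CPM at E11.5, 404 and 347 CPM at E12.5 and 93.2 CPM at E13.5. Its log2 change was -3.37 ± 0.58 (adjusted p = 0.00311, edgeR), and 15 of 20 cells of library 3 still had a UMI. In the later pools it ranged from 131 to 788 CPM, so the E13.5 pool was the lowest of all. Akr1cl, an aldo-keto reductase, stood at 1179, 1642 and 1374 CPM at E11.5, 727 and 1517 CPM at E12.5 and 364 CPM at E13.5 (log2 change -2.05 ± 0.42, adjusted p = 0.0141, edgeR). Dclk1, a microtubule-associated kinase, stood at 1100, 1621 and 1003 CPM against 372 CPM (adjusted p = 0.0466, edgeR). Without the library 3 cell with germ cell levels the counts were 21 up and 2 down, with Dclk1 no longer called (adjusted p = 0.0859 by edgeR). Mael, a piRNA pathway gene that had passed at 4.50, 4.12 and 0 CPM against 117 CPM, was not called either (adjusted p = 0.139), and that cell held 129 of its 220 UMIs in library 3.

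Between E12.5 and E13.5, 0 of 8226 genes passed by edgeR (0%), where 250 had an unadjusted p under 0.05, and DESeq2 called 5, all lower.

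Across the wider span, Svs6, Cyp2f2 and Crygb were at or near 0 up to E13.5 and rose later, while Klk1, Gpr37 and most G2 and M phase genes fell. Comparing E14.5 to E18.5 with E11.5 to E13.5 in the same fit, 195 genes rose (2.37%) and 223 fell (2.71%). The median log2 change of all genes was 0.087. With upper-quartile scaling, which moved that median to -0.006, the split was 173 up and 307 down. With only those later libraries that also held reporter-gate cells, 63 rose and 50 fell, and with only the others 149 rose and 166 fell. Of the 223 lower genes 104 were higher, and 59 over 2 times higher, in BVSC-gate cells of the early libraries than in their supporting cells. Of the 195 higher genes, 64 were higher and 39 over 2 times higher in those BVSC-gate cells. No share over all tested genes stands beside these counts, so they are not read as a result.

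Svs6, Svs5 and Cyp2f2 were among the 10 genes with the largest rise. Svs6, a seminal vesicle secretory protein, had no UMI in any of the 81 early cells and stood at 14.54 to 225 CPM (median 81.0) later, at least 170-fold higher (log2 change 10.08 ± 1.28, adjusted p = 2.5e-06, edgeR). Svs5, of the same family, had 12 UMIs in 1 early cell of library 9 and stood at 36.7 to 523 CPM later. Cyp2f2, a cytochrome P450, had no early UMI and stood at 10.2 to 142 CPM later. For each of these genes early and later pools did not overlap, which the rule for naming them required. Crygb, a lens crystallin gene, stood at 0, 0 and 4.23 CPM at E11.5, 0 and 0 CPM at E12.5, 2.66 CPM at E13.5 and 59.8 to 601 CPM later (log2 change 8.05 ± 0.76, adjusted p = 9.75e-09, edgeR). Pcp4l1, related to a calmodulin-binding protein, climbed from 0, 0 and 22.6 CPM at E11.5 through 23.4 and 13.2 CPM at E12.5 and 78.3 CPM at E13.5 to 177 to 1008 CPM later (log2 change 4.24 ± 0.46, adjusted p = 1.45e-07, edgeR). Dync1i1, Wfdc6a, Wfdc6b, Wfdc10 and Cd44 completed the 10 genes with the largest rise, and all 10 calls held in the 21 alternatives.

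Of the 10 leading genes of the early cells, 3 were scarce in germ cells. Klk1, a tissue kallikrein protease (chr7:44225360-44229618), stood at 186, 33.0 and 87.5 CPM at E11.5, 78.3 and 123 CPM at E12.5, 25 CPM at E13.5 and 0 to 13.7 CPM later, beside 0.222 to 4.85 CPM in BVSC-gate cells. It was carried by few cells, 6 of 12, 1 of 6 and 3 of 10 at E11.5, 4 of 19 and 2 of 14 at E12.5 and 4 of 20 at E13.5. Its log2 change was -6.49 ± 1.05 (adjusted p = 9.95e-05, edgeR). Gpr37, an orphan G protein-coupled receptor, stood at 283, 115 and 523 CPM at E11.5, 147 and 121 CPM at E12.5, 161 CPM at E13.5 and 1.8 to 82.8 CPM later (log2 change -2.71 ± 0.40, adjusted p = 2.06e-05, edgeR). Myl1, a myosin light chain of fast muscle, stood at 466, 483 and 161 CPM at E11.5, 368 and 221 CPM at E12.5, 153 CPM at E13.5 and 0 to 130 CPM later (log2 change -3.06 ± 0.50, adjusted p = 8.41e-05, edgeR). Early and later pools did not overlap for these genes, which was a condition for naming them.

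The other 7 had far higher levels in BVSC-gate cells. Rhox9 stood at 218, 99.0 and 192 CPM at E11.5, 142 and 129 CPM at E12.5, 274 CPM at E13.5 and 0 to 67.7 CPM later, with 1261 to 1474 CPM in BVSC-gate cells, and had a UMI in nearly every supporting cell, for example 12 of 12 in library 1 and 13 of 14 in library 9. Its log2 change was -6.81 ± 0.73 (adjusted p = 1.45e-07, edgeR). Within each library the supporting pool was at 9.31% to 21.7% of the BVSC-gate level, and library 2, which held no BVSC-gate cell, had the lowest level. Utf1, a chromatin factor of pluripotent cells, stood at 226, 86.6 and 329 CPM at E11.5, 231 and 138 CPM at E12.5, 152 CPM at E13.5 and 0 to 25.3 CPM later, with 838 to 1309 CPM in BVSC-gate cells. Rhox6, BC048679 and the germ and stem cell factors Tfap2c, Sall4 and Nanog had the same order of levels. Whether these transcripts were made in the supporting cells was not tested. Of 9 tested genes of the germ cell list, 5 were lower later (2.71% of all genes) and Mael was higher (log2 change 2.45 ± 0.60, adjusted p = 0.00993, edgeR). Mael stood at 0 to 4.50 CPM at E11.5, 8.07 and 14.49 CPM at E12.5, 117 CPM at E13.5 and 10.7 to 298 CPM later. The list summed to 169 to 633 CPM in the early pools and 43.4 to 849 CPM (median 186) in the later ones. The calls of Tfap2c, Sall4, BC048679 and Nanog were lost when only later libraries with reporter-gate cells were used.

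**Figure D3:**
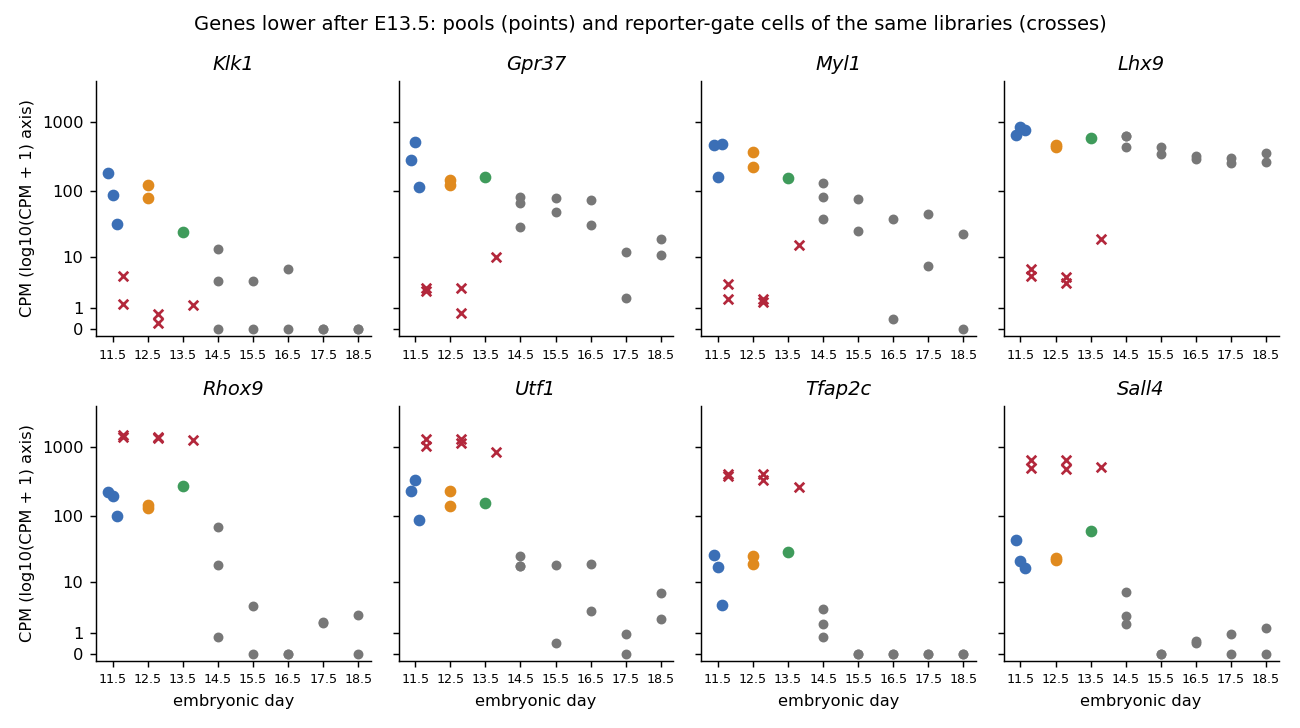
Levels of 8 genes in CPM on a log10(CPM + 1) axis against embryonic day, with points for supporting pools (coloured at E11.5 to E13.5, grey later) and red crosses for BVSC-gate cells of the same early libraries. The crosses lie below the coloured points for Klk1, Gpr37, Myl1 and Lhx9 and above them for Rhox9, Utf1, Tfap2c and Sall4.

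Of the gene lists, that of G2 and M phase had the most members that fell. Of 16 G2 and M phase genes tested, 13 were lower later and 0 higher, beside 2.71% and 2.37% of all genes. Their median log2 change was -2.22 beside 0.087 over all genes. Cdc20, which activates the anaphase-promoting complex, stood at 277, 94.9 and 602 CPM at E11.5, 150 and 23.7 CPM at E12.5, 137 CPM at E13.5 and 1.8 to 104 CPM later (log2 change -3.44 ± 0.45, adjusted p = 3.13e-06, edgeR), and early and later pools overlapped. Nusap1, Plk1, Aurka and the proliferation marker Mki67 had log2 changes of -2.97, -2.74, -2.67 and -2.47. The early libraries differed widely among themselves. The G2 and M sum was 4946, 441 and 8323 CPM in libraries 1, 2 and 7, 2320 and 758 CPM in libraries 8 and 9, 2786 CPM in library 3 and 370 to 1309 CPM later, so libraries 2 and 9 lay within the later range. BVSC-gate cells of the other early libraries had sums of 7478 to 8730 CPM, and library 2, the lowest early pool, held no BVSC-gate cell. The part of germ cell RNA in these sums was not tested. Over the alternatives 2 to 15 of the 16 were called lower, with 2 in limma on means of cells. Of 17 S phase genes (median log2 change -1.21) 7 were lower, beside 2.71% of all genes. Among them were Tyms, thymidylate synthase, at -1.41 ± 0.28 and Mcm2, of the replication helicase, at -1.41 ± 0.37. Over the alternatives this count ran from 0 to 12, and without library 9 it was 1.

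**Figure D4:**
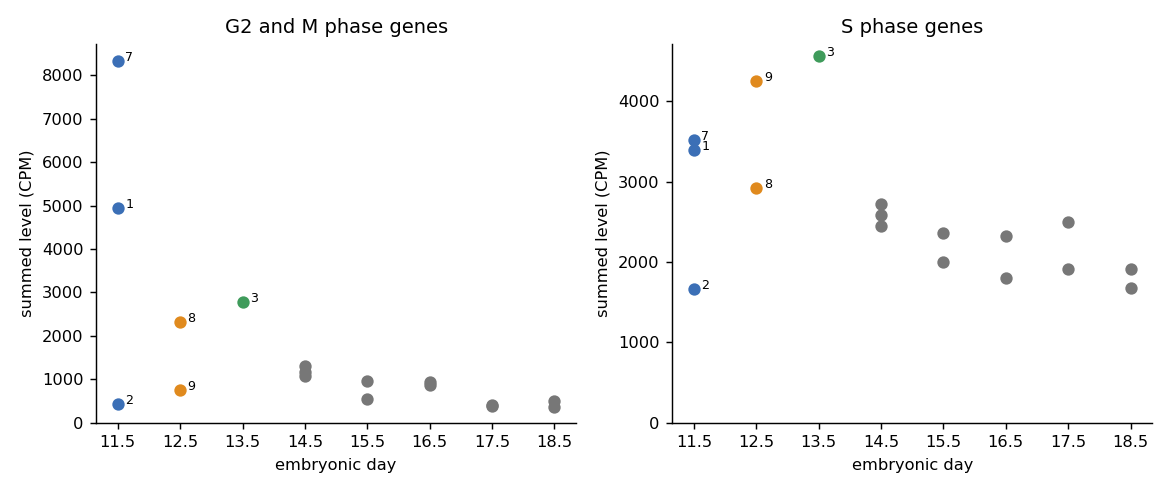
Summed level in CPM of 16 G2 and M phase genes (left) and 17 S phase genes (right) in each supporting pool against embryonic day, with library numbers beside the coloured early pools and later pools in grey. The G2 and M sums of libraries 1 and 7 at E11.5 reach 4946 and 8323 CPM, while library 2 of the same stage lies at 441 CPM.

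In the WNT pathway the R-spondin receptor Lgr5 and the ligand Wnt2b rose later. Wnt6 stood at 771, 932 and 907 CPM at E11.5, 1392 and 1113 CPM at E12.5 and 871 CPM at E13.5 without a call over the supporting stages. Of 17 tested members 2 rose and 0 fell from early to later stages, beside 2.37% and 2.71% of all genes, and a count this small is not read as a result about the list. Lgr5 stood at 22.5, 0 and 45.1 CPM at E11.5, 23.4 and 17.1 CPM at E12.5, 25.6 CPM at E13.5 and 72.8 to 432 CPM later (log2 change 3.12 ± 0.54, adjusted p = 0.000186, edgeR). Its early UMIs came from few cells, such as 5 of 19 in library 8 and 7 of 20 in library 3. Wnt2b passed as well (adjusted p = 0.0275, edgeR), with UMIs in 1 early pool. Lef1, a transcription factor of the pathway, had a log2 change of -1.28 ± 0.41 and did not pass (adjusted p = 0.0589, edgeR). No member was called between E11.5, E12.5 and E13.5.

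Among gonadal transcription factors Lhx9 fell. Of 5 tested members of the early gonad list 1 fell later, beside 2.71% of all genes, and none was called within E11.5 to E13.5. Lhx9 stood at 665, 771 and 859 CPM at E11.5, 475 and 434 CPM at E12.5, 594 CPM at E13.5 and 253 to 641 CPM later (log2 change -0.74 ± 0.18, adjusted p = 0.00727, edgeR). Nr5a1, which stood at 560, 318, 363, 269, 195 and 530 CPM in libraries 1, 2, 7, 8, 9 and 3, had a log2 change of -0.62 ± 0.21 (adjusted p = 0.087). Nr2f2, an orphan nuclear receptor of stromal precursors, fell from 372, 359 and 279 CPM at E11.5, 208 and 103 CPM at E12.5 and 136 CPM at E13.5 to 7.60 to 188 CPM later (log2 change -1.63 ± 0.33, adjusted p = 0.00178, edgeR), beside 1266, 622 and 1004 CPM in the stromal pools. Ifitm1 fell later too, by 0.93 on the log2 scale (SE 0.12, adjusted p = 1.26e-06, edgeR).

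Pregranulosa and Sertoli marker lists gave few calls. Of the 8 tested genes of the pregranulosa list, Lgr5 was the gene that rose from early to later stages, beside 2.37% of all genes. Bmp2, a BMP ligand of the fetal ovary, stood at 171, 264 and 367 CPM at E11.5, 107 and 210 CPM at E12.5 and 255 CPM at E13.5 without a call. Cdkn1b, the cell cycle inhibitor p27 of resting pregranulosa cells, stood at 208, 247 and 181 CPM, then 316 and 165 CPM, then 270 CPM, with 252 to 494 CPM later (log2 change 0.70 ± 0.23, adjusted p = 0.0669, edgeR). None of 8 tested Sertoli-list genes was called over the supporting stages, and with 2.37% of all genes higher and 2.71% lower later this says little about 8 genes. Among them Cst9 ran from 3.20 CPM (library 3) to 332 CPM (library 1) and Cyp26b1, which degrades retinoic acid, reached 520 CPM in library 2, where 120 of 126 UMIs came from 1 cell. Of the 8 cystatin and Wfdc genes, Wfdc10 and Cst12 rose later, beside 2.37% of all genes. Cst12 stood at 213, 0 and 1.41 CPM at E11.5, 39.5 and 13.2 CPM at E12.5, 232 CPM at E13.5 and 378 to 1307 CPM later (log2 change 3.42 ± 0.52, adjusted p = 3.74e-05, edgeR).

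Signalling and growth lists moved in single members. Zfp36, Atf3 and Jun, 3 of 5 tested immediate early genes, rose later, beside 2.37% of all genes. None of them stood above 134 CPM in BVSC-gate cells. The immediate early list summed to 2533, 4480 and 1261 CPM at E11.5, 989 and 1484 CPM at E12.5 and 1765 CPM at E13.5. Later pools summed to 1692 to 5450 CPM (median 4100), so libraries 1, 2 and 3 lay within the later range. Over the alternatives 2 to 5 members were called higher. Zfp36, an RNA-binding protein that shortens mRNA lifetime, went from 38.2, 74.2 and 127 CPM at E11.5, 190 and 327 CPM at E12.5 and 191 CPM at E13.5 to 398 to 1150 CPM later (log2 change 2.04 ± 0.28, adjusted p = 5.91e-06, edgeR). Of 10 tested D cyclin and CDK inhibitor genes the growth-arrest genes Gadd45b and Btg2 and the cyclin Ccnd2 rose, beside 2.37% of all genes. Their log2 changes were 1.5, 1.07 and 0.85. Hey1, a NOTCH and BMP target, stood at 251, 86.6 and 155 CPM at E11.5, 50.8 and 111 CPM at E12.5 and 93.2 CPM at E13.5 and fell later (log2 change -3.61 ± 0.70, adjusted p = 0.00109, edgeR). It was the 1 called gene of 8 in the NOTCH list, beside 2.71% of all genes lower later.

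Inhbb, an activin subunit, was the 1 called gene of 14 in the BMP and activin list (log2 change -1.40 ± 0.43) and stood at 561 CPM in library 2 beside 65.0 to 126 CPM in the other 5 early pools. In library 2, 96 of its 136 UMIs came from 1 cell. Crabp2, which carries retinoic acid to its receptor, was the 1 called gene of 6 in the retinoid list (log2 change -3.19 ± 0.92). The ligand Pdgfc fell from 87.7, 157 and 236 CPM at E11.5, 21 and 46.1 CPM at E12.5 and 98.6 CPM at E13.5 to 0 to 58.1 CPM later (adjusted p = 0.00104, edgeR). Of 17 imprinted genes, Phlda2, Zim1, Nnat and Peg3 fell and Sgce rose, beside 2.71% of all genes lower and 2.37% higher. The largest change, that of Phlda2 at -4.48 ± 0.73 on the log2 scale, was in a gene at 606 to 1193 CPM in BVSC-gate cells. None of 13 glycolysis genes was called in any of these contrasts, where the share called was at most 2.71% of all genes in 1 direction. Single calls in the NOTCH, BMP and activin and retinoid lists, and 0 of 13, are not read as results about those lists.

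Whether a change over stages differed from that in stromal cells was tested as an interaction over 8129 genes, with 1 stromal pool at each stage. The classes were formed from measured levels by the rule itself, so the values below are read only as a description of these pools. For 3 genes (0.0369%) the change from E11.5 to E13.5 was more positive in supporting than in stromal cells, and for 31 (0.381%) more negative by edgeR. Limma on means of cells gave 58 and 47, and without the E13.5 supporting cell with germ cell levels edgeR gave 3 and 22. Pam, an enzyme that amidates peptide hormones, stood at 58.5, 61.9 and 26.8 CPM at E11.5, 168 and 190 CPM at E12.5 and 270 CPM at E13.5 in supporting pools, against 326, 61.6 and 22.7 CPM in the stromal pools of E11.5, E12.5 and E13.5 (interaction 6.27 ± 0.97 on the log2 scale, adjusted p = 0.000221, edgeR). The negative set rested on the E13.5 stromal pool of 6 cells. Kctd14 and Wnt6 were at 594 and 496 CPM there and at 68.9 and 18.8 CPM in the E11.5 stromal pool. Without the 1 stromal cell nearest to the limit, whose supporting sum was 1390 CPM and stromal sum 1397 CPM, 6 genes were called, 4 more positive and 2 more negative, and the Kctd14 interaction went from -3.85 to 0.17.

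Among the cells themselves, Pax8 and Sphkap were each found in a minority. Pax8 had a UMI in 27 of 82 cells and Sphkap, which encodes an anchor protein of protein kinase A, in 15. Both were found in 3 cells, while 24 had Pax8 alone, 12 had Sphkap alone and 43 had neither. The 3 cells with both were of E12.5, where 4 cells had Sphkap and 15 had Pax8. In the pools Pax8 stood at 40.5, 120 and 1.41 CPM at E11.5, 92.8 and 146 CPM at E12.5 and 76.7 CPM at E13.5. Sphkap stood at 137, 313 and 113 CPM at E11.5, 13.7 and 31.6 CPM at E12.5 and 0 CPM at E13.5, so its 3 E11.5 pools were all above the others. Neither gene passed the test over stages, with an adjusted p of 0.0811 for Sphkap from E11.5 to E13.5 (edgeR).

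The share of cells with a Sphkap UMI was 39.3% (11 of 28) at E11.5, 12.1% (4 of 33) at E12.5 and 0 of 21 at E13.5. By library it was found in 4 of 12, 3 of 6 and 4 of 10 cells at E11.5 (libraries 1, 2 and 7). At E12.5 it was found in 3 of 19 cells of library 8 and 1 of 14 of library 9. Of the 21 cells of E13.5, 20 came from library 3, 1 from library 11, and 1 of each had germ cell levels. Thinned to 20000 UMIs the shares were 37.5%, 7.69% and 0%, against 0.769%, 0% and 0.667% in BVSC-gate cells thinned alike. For Pax8 the shares were 25% (7 of 28), 45.5% (15 of 33) and 23.8% (5 of 21), and thinned 20.8%, 46.2% and 21.1%. By library Pax8 was found in 4 of 12, 2 of 6 and 1 of 10 cells at E11.5 (libraries 1, 2 and 7). In libraries 8, 9 and 3 it was found in 8 of 19, 7 of 14 and 5 of 20 cells. BVSC-gate cells, set beside them, had Pax8 in 13.8%, 12.2% and 4.67% of thinned cells and in 30.1%, 27.3% and 18.1% unthinned. Median UMIs in the genes read were 46505, 63697 and 81305 in supporting cells and 159869, 153892 and 155130 in BVSC-gate cells at the 3 stages. Cells of 1 library are not separate replicates of a stage, so these shares describe the cells read and carry no interval.

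**Figure D5:**
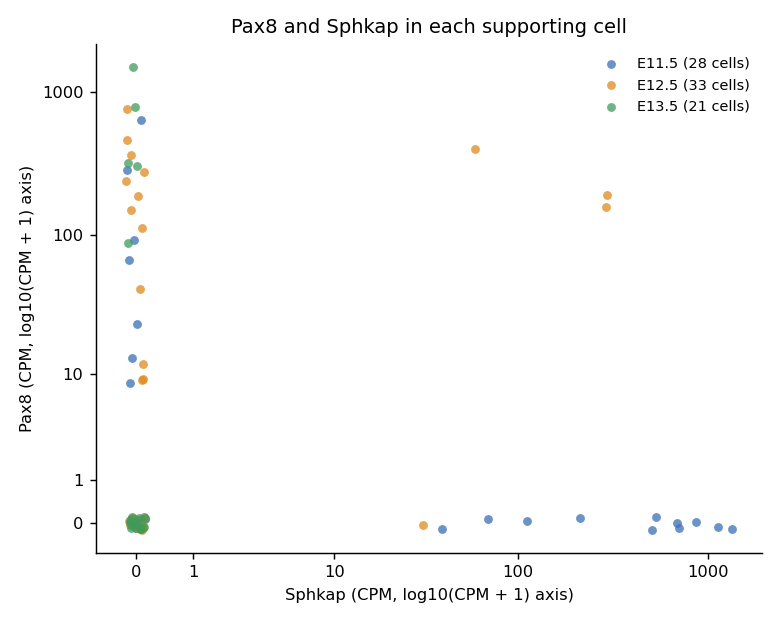
Pax8 (vertical) against Sphkap (horizontal) in each of the 82 supporting cells, in CPM on log10(CPM + 1) axes with small random offsets so that cells at 0 can be seen, and E11.5, E12.5 and E13.5 in blue, orange and green. In all 43 cells have neither gene, 24 have Pax8 alone, 12 have Sphkap alone and 3 have both.

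Kctd14 averaged 3215 CPM in the cells with Pax8 and 3166 CPM in the others, and Wt1 1177 and 966 CPM. Nr5a1 averaged 258 CPM with Pax8 and 391 CPM without it. Lhx9 averaged 364 CPM with Pax8 and 742 CPM without it. Ret, a receptor tyrosine kinase of the mesonephric duct, had a UMI in 8 of 27 cells with Pax8 and 6 of 55 without, and Gata3, a transcription factor of the same duct, in 1 and 5. The genes whose levels ranked most like Pax8 over the 82 cells, out of 5883 found in at least 10 of them, were Cacna2d1, a calcium channel subunit (Spearman rho 0.58), the BMP receptor Bmpr1b (0.53), the secreted Egfl6 (0.53) and the caveolar protein Cavin3 (0.52), followed by Ncoa7, Ube2l6, Igfbp5, Atp8a1, Sema3c and Iffo1. Cacna2d1 had a UMI in 14 of 27 cells with Pax8 and 4 of 55 without, and Bmpr1b in 11 and 1.

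The genes most like Sphkap were Klhl23 (0.51), Skil, a repressor of SMAD signalling (0.48), the ubiquitin ligase Rlim (0.48), Gm16150 (0.48) and Akr1cl (0.45), followed by Ldhb, Cited2, Plac1, Scrt2 and Ereg. Of these, Akr1cl and Cited2 fell from E11.5 to E13.5, and Sphkap was found mostly at E11.5. Cells of 1 library share their preparation and depth, so these rank correlations describe the 82 cells and carry no test. Leaving out the 17 cells with Pax8 at or above 100 CPM lowered the count of genes called from E11.5 to E12.5 to 21, of which 19 rose.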

How the data were processed

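Expression was read from the deposited UMI count table, in which the authors counted molecules per gene and cell with cell barcodes and molecular identifiers (per the labels' protocols). The submitters' processing notes name CASAVA 1.8, UMI-tools, STAR, featureCounts, Subread and the build mm10, without their roles, the strand setting or filters. Stage, library, replicate (R1 or R2) and sort gate came from the deposited cell table. In the table read, 1 incomplete line was dropped, and the 16344 complete genes held a median of 51.2% of a cell's UMIs (46.6% to 52.4% in supporting cells). CPM values refer to these genes, and genes outside them were not analysed here. Positions came from the GENCODE annotation of GRCm38, which matched 16252 genes, and promoters from RefSeq.

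Counts were summed by library and stage over cells of 1 class, for pools of at least 5 cells, and tested with edgeR 4.0.16 (R 4.3.3): TMM scaling, filterByExpr, quasi-likelihood F tests, 1 mean per stage over all 8 stages (9 residual degrees of freedom) and Benjamini-Hochberg adjustment at 0.05. Standard errors are the absolute log2 change divided by the square root of F. The 9 rule genes got no test. Alternatives used DESeq2 1.42.0, limma 3.58.1, other scalings, filters and pool sizes, and left out libraries or cells. The fit was also run on simulated counts drawn from its own means, sizes and spread. Such counts cannot check the spread assumed for the lone E13.5 pool. Folds against 0 are bounds from 3 counts over the group. The Poisson interval given for Tceal6 is exact at 95% and covers counting error only.

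Libraries served as replicates. At E11.5 libraries 1 and 2 were both labelled R1, and library 7 was labelled R2. Since no label ties libraries to different animals, the p-values reflect only how libraries vary, which can be technical. Cells were picked by hand and no doublets were removed. Named genes were the 10 highest and 10 lowest log2 changes among called genes whose pools did not overlap and whose higher mean was at least 20 CPM, called members of 26 gene lists with examples for their role, the rule and marker genes, the 10 largest ratios to stroma at 50 CPM or more, and the 10 genes most like Pax8 and Sphkap. The members, the lists and the rules were chosen with earlier results of these data known. The cells singled out for germ cell, globin or low Kctd14 levels, and the genes given for them, were chosen after their values were seen. A gene within these rules is not reported here, though it stayed in the fits and counts.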

Additional observations from a re-analysis of the deposited data

Results flagged for a closer look

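The interaction fitted in edgeR is the change from E11.5 to E13.5 in supporting cells minus that in stromal cells. The rule itself formed both classes, and the fit did not block by library although libraries 7 and 3 gave pools of both. The differences are therefore given only as a description of these pools. The values below are for genes that the selection rule names or that belong to a gene list. On the log2 scale the difference was 6.83 for Mme, 6.27 for Pam and 4.73 for Malsu1. It was -12.03 for Tmem184a, -11.48 for Msx1, -11.39 for 1500011K16Rik, -11.29 for Slc4a3, -10.44 for Nucb2, -9.74 for Tspan18, -8.32 for Akr1cl, -6.92 for St3gal5 and -6.54 for Stim1. Among list members it was -4.78 for Wnt6, -3.85 for Kctd14 and -4.09 for Itga6. Each stage had 1 stromal pool, and the supporting cells of E13.5 gave 1 pool. Most of these differences were no longer called without the stromal cell nearest to the limit of the rule. Without the E13.5 supporting cell with germ cell levels the difference was -11.86 for Tmem184a and -11.13 for Slc4a3, and neither was called. A fitted difference for a gene at 0 in a stromal pool depends on the prior count and is no bound.

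Outside the Negative gate, 58 of the 436 reporter-gate cells of E11.5 to E13.5 (13.3%) passed the same limits with a UMI of Kitl, Rspo1 or Wnt4. Their summed level of these genes had a median of 18.6 CPM, against 1695 CPM in the 82 supporting cells, and 1 of the 58 reached that value. They were not counted among the supporting cells.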

How the results depend on the processing

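Called genes numbered 38 for E12.5 against E11.5, 25 for E13.5 against E11.5, 0 for E13.5 against E12.5, 418 for later against early and 34 for the interaction with stroma. In that order, DESeq2 called 119, 78, 5, 753 and 74. Without a filter on low counts the first 3 were 87, 60 and 8, and the interaction had 58. With pools of at least 8 cells the first 4 were 104, 43, 5 and 719. With E11.5 to E13.5 alone in the fit they were 1, 0 and 0, with 8 for the interaction. Limma on means of cells called 2, 14 and 0, and 105 for the interaction. Without cells at or above 100 CPM of Pax8 there were 21, 18 and 1, and 20 for the interaction. Upper-quartile scaling gave 19 and thinned cells 7 for the interaction, which fell to 6 without the stromal cell nearest to the limit. Later libraries with reporter-gate cells gave 113 for later against early. Scaling by all deposited UMIs gave 124 genes at least 4-fold above stroma in place of 240. The interaction reversed for Tspan18 (0.52) in limma and for Kctd14 (0.17) without that stromal cell. Except where an alternative itself uses fewer samples, cells or genes, the cause was not tested.

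Leaving out 1 library at a time gave 10 to 57, 22 to 33, 0 to 1, 328 to 594 and 26 to 39 calls. The 10 came without library 8 or library 9, and the 57 without library 1. Of all values for single genes under the alternatives, 1864 kept direction and side of the threshold, 335 kept direction but were not called, and 2 reversed. The interaction could not be fitted without library 3 or 7, or with pools of at least 8 cells.

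R1 and R2 did not pair the libraries: over 21 pairs of stages the correlation of deviations ran from -0.046 to 0.062. With a replicate block the calls numbered 43, 24, 1, 419 and 30. With libraries merged by replicate label, 39 genes rose and 2 fell for E12.5 against E11.5, and 241 rose and 301 fell for later against early.

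At E13.5 the values rest on 1 library, and library 2 had the fewest cells and UMIs, so levels of a few CPM there rest on single UMIs.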
